A study of Rattus norvegicus with 12 samples.

Results

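The genes described here encode subunits of the oxidative phosphorylation complexes I to V, measured in organotypic cultures of REK, a rat epidermal keratinocyte line grown without feeder cells. Members were the probes whose gene name on the array, ignoring case and suffixes, began with Nduf, Uqcr, Sdha to Sdhd, Cox4 to Cox7, Cox8a or Atp5. The rule found 65 of 22523 probes, carrying 64 names. Of these names 60 were counted as subunits (29 in complex I, 4 in complex II, 4 in complex III, 11 in complex IV and 12 in complex V). The count for complex IV includes Cox7a2l, which resembles a subunit. The other 4 names share a prefix without being subunits: Ndufaf1, Atp5s, Atp5sl and Cox4nb. The tested set of 10937 genes held 60 of the 64 names, of which 56 were counted as subunits.

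Mitochondria make most of the ATP of resting cells by passing electrons from NADH and succinate along the inner membrane to oxygen and by letting the pumped protons return through ATP synthase. Complex I (NADH dehydrogenase), complex III (the cytochrome bc1 complex) and complex IV (cytochrome c oxidase) pump protons, complex II (succinate dehydrogenase) also belongs to the citric acid cycle, and complex V is the synthase. A small share of the subunits is encoded by mitochondrial DNA. The nuclear genes are often expressed together, and NRF1 and GABP are known activators of many of them.

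The study asked how betaine, an osmolyte and methyl donor, and ultraviolet B radiation act on such epidermal cultures. There were 3 arrays (A, B and C) in each of 4 groups, all collected at 2 weeks. The BET+UVB group received 10 mM betaine for 11 days and 30 mJ/cm2 UVB 24 h before collection. The UVB group received the irradiation alone, the BET group received betaine alone, and the CTRL group received mock irradiation and no betaine. All cultures shared the line, the collagen-coated inserts and the air-liquid interface, so the results describe a single keratinocyte line. All 12 keratinocyte marker genes found on the array were detected on all 12 arrays. Of 7 fibroblast markers, 6 were detected on none and Col3a1 on 8. The melanocyte markers Pmel and Mlana and the immune markers Cd68 and Cd3e were detected on all 12 arrays. The melanocyte marker Tyr, the immune markers Cd74 and Ptprc and the endothelial marker Cdh5 were detected on none. The source of the signals from markers of other cells was not tested. The labels do not say whether A, B and C were independent experiments, and a p-value here can speak only for the variation among these 12 arrays, which may be technical.

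RNA was hybridised to a BeadChip, on which each probe gives a brightness and a detection p-value. A probe counted as detected on an array at a detection p under 0.05, and levels are background-corrected log2 values after quantile normalization. Between 46.0% and 47.8% of probes were detected on each array. The members were bright genes: their median level was 12.55, against 8.33 for all genes tested, and 54 of 60 had a mean level of at least 10, as did 3209 of all genes. Their median SD within groups was 0.083, against 0.153 for all genes. With 3 arrays a group, the number of arrays limits the precision. In bulk RNA, fewer cells of a type and less RNA per cell cannot be told apart.

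None of the 60 members rose or fell in any comparison by limma's moderated test at an adjusted p under 0.05 (Benjamini-Hochberg over 10937 genes). BET+UVB against CTRL called 0 of 60 members, where 5.18% of all genes were called. UVB against CTRL called 0 of 60 members, where 4.96% of all genes were called. BET against CTRL called 0 of 60, where 0.896% of all genes were called. The figure was 0 of 60 against 0.887% of genes for BET+UVB over UVB, and 0 of 60 against 6.14% for BET+UVB over BET. The change averaged over both betaine states (6 arrays with UVB against 6 without) called 0 of 60 members and 11.2% of all genes. The change with betaine, averaged over both UVB states, called 0 of 60 members and 3.25% of all genes. The interaction, which asks whether the change with UVB differs with betaine, called 0 of 60 members and 0% of all genes. Among the 3209 genes with a mean level of at least 10, which include most members, the averaged UVB change called 9.88% and the averaged betaine change 2.52%. Of the 12 keratinocyte markers, the averaged UVB change called 1 higher (Itgb4, 0.26) and 1 lower (Krt15, -0.58).

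At an unadjusted p under 0.05, a few members passed in each comparison. For the averaged UVB change 8 members were higher and 2 lower, 10 of 60, against 24.3% of all genes in either direction. For the averaged betaine change 1 was higher and 1 lower, against 19% of all genes. BET+UVB against CTRL had 4 higher and 3 lower, against 19.7% of all genes, and UVB against CTRL had 5 and 1, against 17.7%. BET against CTRL had 2 and 2, against 11.4%. BET+UVB had 1 higher and 1 lower against UVB, where 16.9% of all genes passed, and 2 and 2 against BET, where 20.3% passed. The interaction had 0 higher and 1 lower, against 8.05% of all genes. With other processing settings, between 0 and 7 members passed the adjusted threshold for UVB comparisons. No setting called a member for BET against CTRL, BET+UVB against UVB, the averaged betaine change or the interaction.

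**Figure D1:**
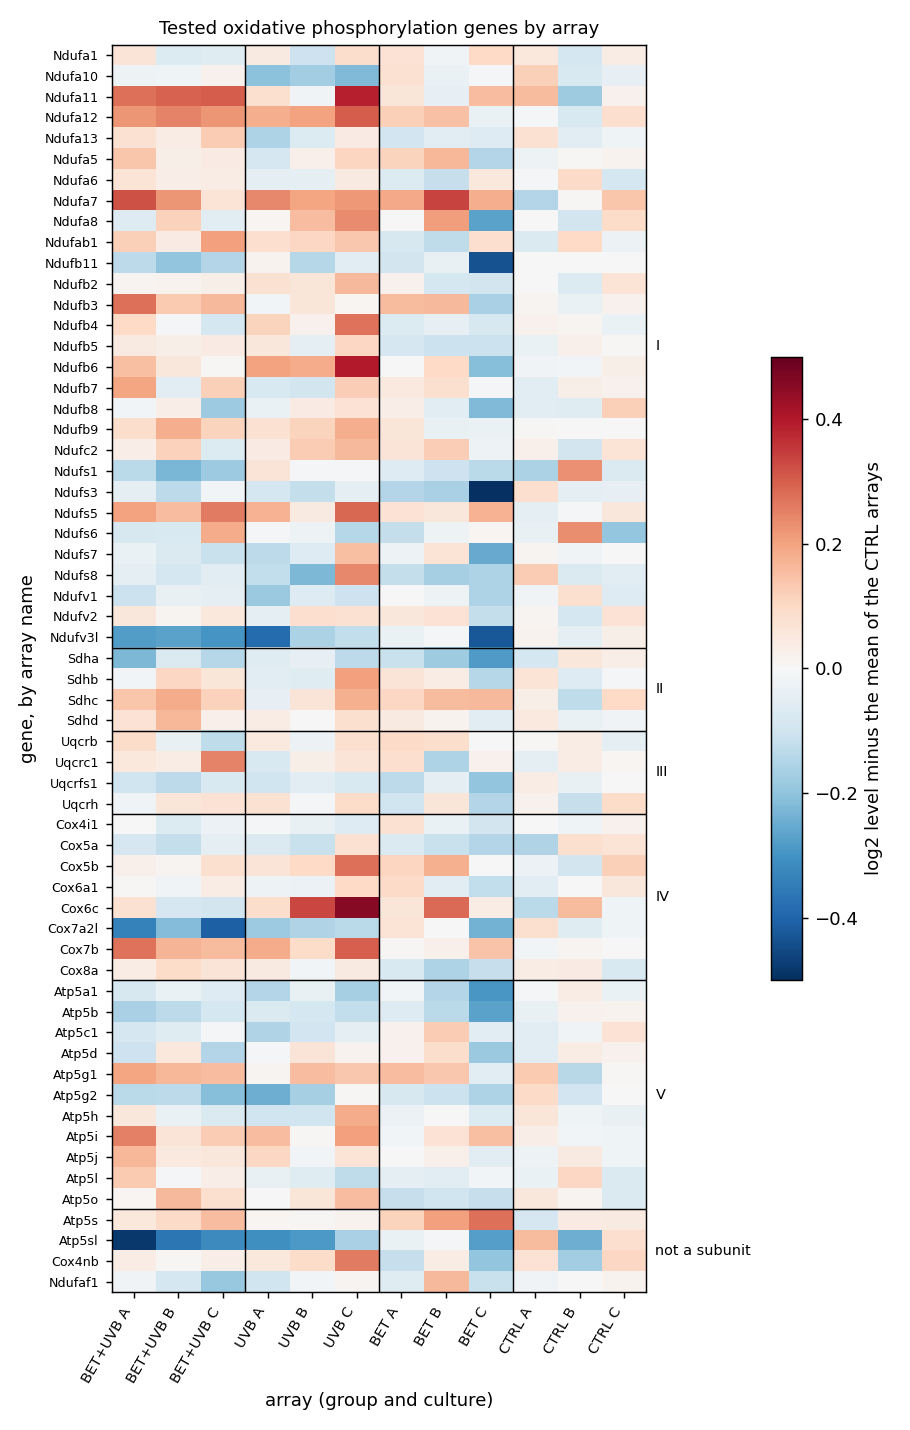
Log2 level of the 60 tested members (rows, by complex, with array names) on the 12 arrays (columns), minus the mean of the CTRL arrays; colours stop at 0.5 in either direction. Most cells are pale; BET C lay below the mean of the other BET arrays for 46 of 60 members, and UVB C above the mean of the other UVB arrays for 49 of 60.

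The members' changes were small as well as uncalled. The averaged UVB change was below 0.2 on the log2 scale (1.15-fold) in either direction for 58 of 60 members (96.7%), against 77.0% of all genes and 84.4% of the genes with a mean level of at least 10. The averaged betaine change was below that size for 60 of 60 members, against 79.8% of all genes and 87.4% of the bright ones. Among subunits, the averaged UVB changes ran from -0.21 (Cox7a2l) to 0.19 (Ndufa11), at most 1.16-fold. The averaged betaine changes ran from -0.15 (Ndufs1) to 0.11 (Ndufb3), at most 1.11-fold.

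The intervals bound what could have been missed in the normalized signal. The highest mean level of a member was 14.80, against 15.19 among all genes tested. Whether signal at such levels still follows the amount of RNA in proportion was not tested. For the averaged betaine change, the 95% interval lay within 0.3 (1.23-fold) either side of 0 for 56 of 56 subunits. For the averaged UVB change it lay within 0.3 for 51 of 56 subunits and within 0.5 (1.41-fold) for 56 of 56. Single comparisons of 3 against 3 arrays were less exact. Intervals within 0.5 were found for 53 of 56 subunits in BET+UVB against CTRL, all but Cox7a2l, Ndufa11 and Ndufv3l. The count was 55 of 56 in UVB against CTRL, where Cox6c reached 0.55. It was 55 of 56 in BET against CTRL, where Ndufs3 reached -0.51. The interaction was the least exact: 12 of 56 subunits had an interval within 0.3, and 53 of 56 within 0.5.

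The members' median averaged UVB change was 0.037, with 38 of 60 above 0, against -0.014 for all genes. With arrays scaled by their medians all genes moved down together, to a median of -0.063, and the members to -0.014. The members' median stood 0.051 above the all-gene median as reported, with 43 of 60 above it, and 0.049 above it with median scaling, with 42 of 60 above it. The genes behind the all-gene median were not matched to the members by brightness, and whether this offset depends on level was not tested. The median averaged betaine change was -0.014, with 25 of 60 above 0, against -6.4e-05 for all genes. With median scaling the all-gene median was -0.023, and the members lay 0.037 below it, with 17 of 60 above it. The median was 0.023 in BET+UVB against CTRL, 0.017 in UVB against CTRL and -0.031 in BET against CTRL. Single arrays moved these medians. BET C lay lower than the mean of the other BET arrays, by a median of 0.099, and without it the median for BET against CTRL was 0.012. UVB C lay higher than the mean of the other UVB arrays, by a median of 0.087, and without it the median for UVB against CTRL was 0.0044. The averaged UVB medians and counts above 0, here and by complex below, include both of these arrays.

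BET+UVB and BET arrays did not overlap for 12 of 60 members that were higher in BET+UVB and 1 that was lower, against 13.6% of all genes higher and 13.7% lower. Their median change was 0.040, with 41 of 60 above 0. Without BET C it was 0.0050, with 30 of 60 above 0.

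**Figure D2:**
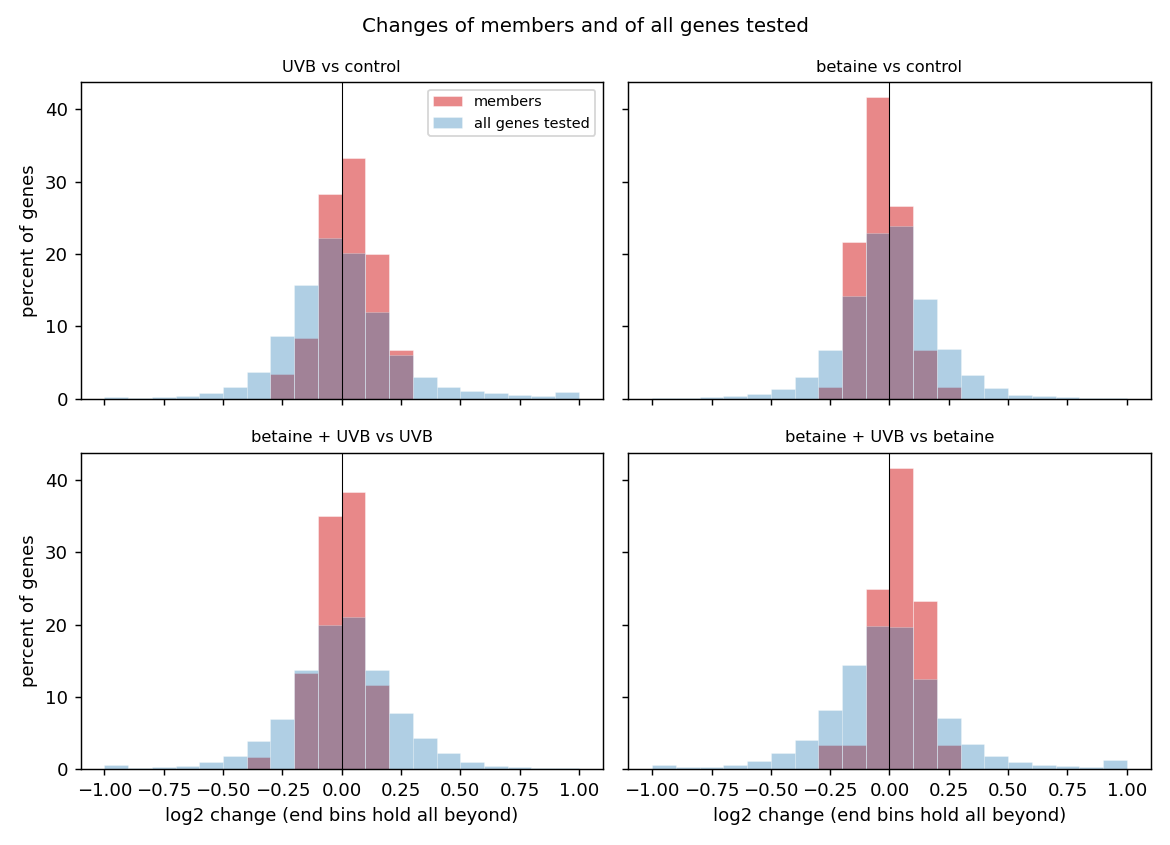
Percent of genes (vertical axis) by log2 change (horizontal axis, bins of 0.1) for the 60 members in red and all 10937 genes tested in blue, in 4 comparisons of 3 against 3 arrays. The members gather near 0: below 0.2 in either direction lie 90.0% of them for UVB against CTRL (all genes 70.0%) and 96.7% for BET against CTRL (all genes 74.6%).

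Complex I, the largest complex and the entry point for electrons from NADH, had 29 tested subunits. For the averaged UVB change 21 of 29 were above 0 and 8 below (median 0.042). Against the all-gene median 23 were above and 6 below, and 22 and 7 with median scaling. The 23 accessory subunits, which surround the catalytic core, had 18 above 0 and 5 below (median 0.075), and 19 lay above the all-gene median under both scalings. The 6 core subunits that carry the flavin and iron-sulfur centres or the quinone site had 3 above and 3 below (median 0.0074), and 4 lay above the all-gene median as reported and 3 with median scaling. These counts include BET C and UVB C, which moved the medians of all members, and are not given without them. For the averaged betaine change, 1 of 6 core subunits was above 0 and 5 below, and 12 of 23 accessory subunits were above 0.

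Ndufa12, an accessory subunit of the matrix arm, came nearest to the threshold. Its level was 12.93, 12.96 and 12.94 in BET+UVB and 12.90, 12.92 and 13.02 in UVB, against 12.83, 12.86 and 12.68 in BET and 12.71, 12.64 and 12.80 in CTRL. Each array with UVB was higher than each array without it. The averaged UVB change was 0.19 ± 0.057 (SE, 6 against 6 arrays; 95% interval 0.067 to 0.32; limma adjusted p = 0.0513). It was below the threshold of 0.05 in 5 alternative settings, where the change ranged from 0.14 to 0.21.

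Ndufa11, an accessory subunit of the membrane arm, had the largest positive averaged UVB change among subunits without passing the test. Its level was 12.87, 12.89 and 12.90 in BET+UVB and 12.68, 12.58 and 12.99 in UVB, against 12.66, 12.56 and 12.75 in BET and 12.75, 12.42 and 12.62 in CTRL. BET+UVB stood above BET and CTRL without overlap, while the UVB arrays spread across both. The averaged UVB change was 0.19 ± 0.083 (SE; limma adjusted p = 0.177).

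Ndufb6, a membrane-arm accessory subunit, had 11.57, 11.48 and 11.43 in BET+UVB and 11.62, 11.61 and 11.82 in UVB, against 11.42, 11.52 and 11.21 in BET and 11.41, 11.41 and 11.45 in CTRL. UVB stood clear of CTRL, whereas BET+UVB overlapped BET. The averaged change was 0.18 ± 0.068 (SE; limma adjusted p = 0.116). Ndufs5, Ndufb9 and Ndufab1, the last being the mitochondrial acyl carrier protein, were the other complex I subunits with an unadjusted p under 0.05. Below 0, Ndufv3l (now Ndufv3), an accessory subunit beside the NADH site, was 8.78, 8.79 and 8.76 in BET+UVB and 8.67, 8.90 and 8.93 in UVB, against 9.02, 9.05 and 8.63 in BET and 9.07, 9.01 and 9.08 in CTRL. Every UVB and BET+UVB array lay below every CTRL array, but BET C was the lowest of the 12. Its averaged UVB change was -0.17 ± 0.080 (SE; limma adjusted p = 0.206).

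Among core subunits, Ndufs1, which carries iron-sulfur clusters beside the NADH site, had the largest averaged betaine change. It measured 11.52, 11.42 and 11.47 in BET+UVB against 11.71, 11.65 and 11.64 in UVB, and 11.59, 11.55 and 11.52 in BET against 11.49, 11.88 and 11.58 in CTRL. With UVB the arrays did not overlap, and without UVB they did, CTRL B being the high array. The averaged betaine change was -0.15 ± 0.069 (SE; 95% interval -0.30 to 0.0016; limma adjusted p = 0.269).

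Ndufs3, a core subunit near the quinone site, had the largest interaction of complex I. It measured 12.12, 12.03 and 12.15 in BET+UVB and 12.08, 12.05 and 12.11 in UVB, against 12.02, 12.001 and 11.62 in BET and 12.25, 12.12 and 12.12 in CTRL. BET lay below CTRL without overlap, with BET C far below its fellows. BET against CTRL was -0.28 ± 0.10 (SE; limma adjusted p = 0.311) and the interaction was 0.30 ± 0.15 (SE; 95% interval -0.018 to 0.63; limma adjusted p = 0.631).

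In UVB against CTRL, Ndufa10, an accessory subunit on the matrix side of the membrane arm, was 12.12, 12.15 and 12.10 in UVB against 12.44, 12.25 and 12.28 in CTRL. It was 12.30, 12.30 and 12.34 in BET+UVB against 12.40, 12.29 and 12.31 in BET. The UVB arrays were the lowest 3 of the 12, and the pair of groups with betaine overlapped. UVB against CTRL was -0.20 ± 0.077 (SE; limma adjusted p = 0.193). Ndufs6, an accessory subunit, was detected on 3 of 12 arrays, so its values near 5.54 say little about its level.

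**Figure D3:**
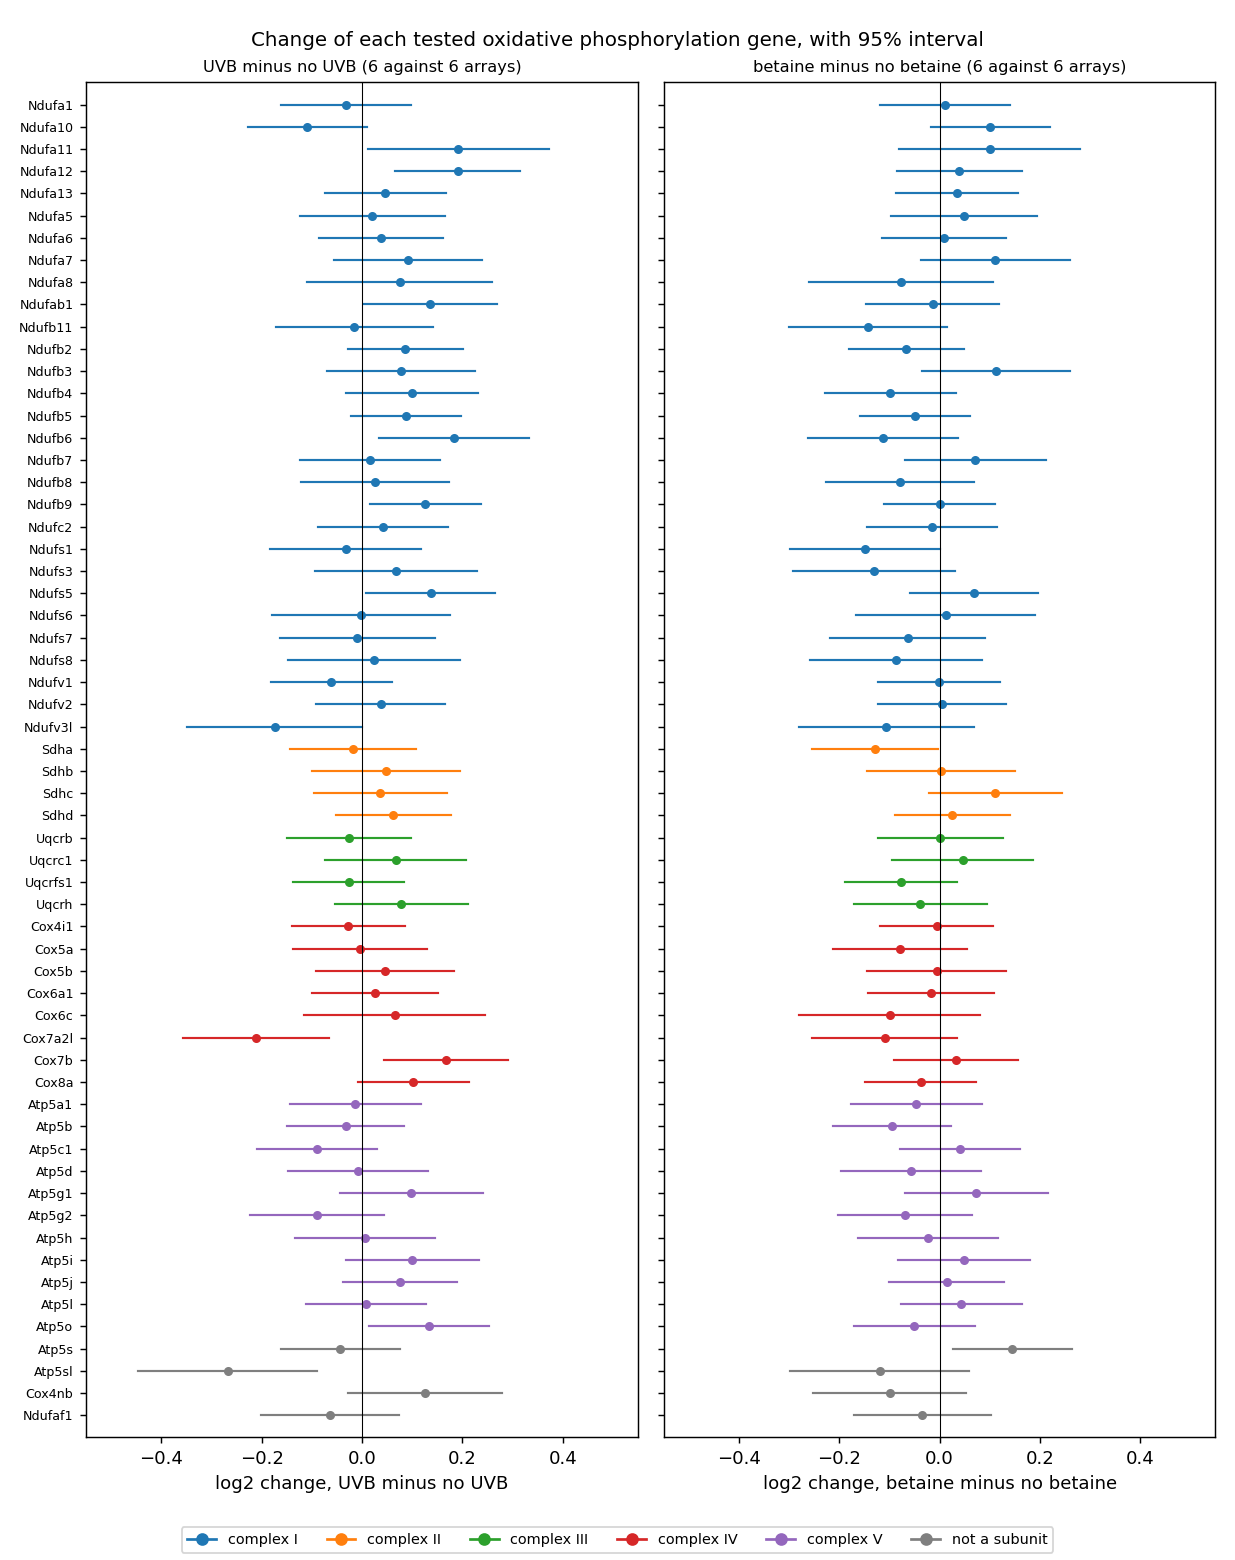
Averaged log2 change of each tested member with UVB (left) and with betaine (right), 6 against 6 arrays, as a point with its 95% interval, coloured by complex. Subunits lie between -0.21 and 0.19 for UVB and between -0.15 and 0.11 for betaine, and the intervals of most cross 0.

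Complex II, which oxidises succinate, had all 4 subunits tested. The flavoprotein Sdha, which holds the succinate site, was 11.46, 11.61 and 11.54 in BET+UVB against 11.62, 11.64 and 11.55 in UVB, and 11.57, 11.50 and 11.40 in BET against 11.59, 11.74 and 11.71 in CTRL. BET lay below CTRL, narrowly, and the irradiated groups overlapped. Its averaged betaine change was -0.13 ± 0.058 (SE; 95% interval -0.26 to -0.0032; limma adjusted p = 0.251), and its interaction was 0.12 ± 0.12 (SE).

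The membrane anchor Sdhd was 11.88, 11.97 and 11.83 in BET+UVB and 11.84, 11.80 and 11.89 in UVB, against 11.85, 11.82 and 11.75 in BET and 11.85, 11.77 and 11.79 in CTRL. These groups overlapped. Its averaged UVB change, 0.063 ± 0.053 (SE), was the largest of the complex by the p-value with an adjusted p of 0.529. With median scaling it was -0.013, which is 0.050 above the all-gene median, against 0.076 above it as reported. The iron-sulfur subunit Sdhb and the other anchor, Sdhc, had averaged UVB changes of 0.047 and 0.037 and averaged betaine changes of 0.0032 and 0.11.

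Complex III, which passes electrons from ubiquinol to cytochrome c, had 4 tested subunits, 2 above 0 and 2 below for both averaged changes. The acidic hinge protein Uqcrh was 14.22, 14.30 and 14.31 in BET+UVB and 14.31, 14.23 and 14.33 in UVB, against 14.14, 14.30 and 14.09 in BET and 14.26, 14.12 and 14.33 in CTRL. All 4 groups overlapped. Its averaged UVB change was 0.078 ± 0.061 (SE; limma adjusted p = 0.493). With median scaling it was -0.011, which is 0.053 above the all-gene median, against 0.092 above it as reported. The Rieske iron-sulfur protein Uqcrfs1 had an averaged betaine change of -0.077 ± 0.051 (SE; limma adjusted p = 0.445). Uqcrb, the ubiquinone-binding subunit, had an interaction of -0.12 ± 0.11 (SE; limma adjusted p = 0.816), and the core protein Uqcrc1 had averaged changes of 0.068 with UVB and 0.046 with betaine.

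Complex IV, which reduces oxygen to water, had 8 of its 11 names tested. For the averaged UVB change 5 of 8 were above 0 and 3 below. For the averaged betaine change 1 of 8 was above 0 and 7 below, with a median of -0.027.

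Cox7a2l, counted here with complex IV by its name, resembles a subunit of that complex and takes part in joining complexes III and IV into supercomplexes. It had the largest negative averaged UVB change among the names counted as subunits, without passing the test. It measured 12.87, 13.00 and 12.80 in BET+UVB and 13.03, 13.06 and 13.08 in UVB, against 13.28, 13.21 and 12.98 in BET and 13.29, 13.15 and 13.19 in CTRL. BET+UVB and UVB lay below CTRL without overlap, and BET C lay among the irradiated arrays. The averaged UVB change was -0.21 ± 0.066 (SE; 95% interval -0.36 to -0.066; limma adjusted p = 0.0639), and BET+UVB against CTRL was -0.32 ± 0.094 (SE; limma adjusted p = 0.0776). It passed in 4 alternative settings for each of these comparisons. Without BET C, 3 members passed for the averaged UVB change, all lower with UVB. The averaged betaine change of Cox7a2l was -0.11 ± 0.066 (SE; limma adjusted p = 0.404).

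Cox7b, a small membrane subunit, was 13.65, 13.55 and 13.54 in BET+UVB and 13.57, 13.47 and 13.68 in UVB, against 13.39, 13.41 and 13.52 in BET and 13.37, 13.39 and 13.38 in CTRL. Both irradiated groups lay above CTRL without overlap. The averaged UVB change was 0.17 ± 0.057 (SE; 95% interval 0.043 to 0.29; limma adjusted p = 0.0880).

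Cox6c, another small membrane subunit, gave the largest interaction of all members, but its probe was dim. It measured 5.77, 5.61 and 5.60 in BET+UVB against 5.79, 6.03 and 6.15 in UVB, and 5.76, 5.98 and 5.73 in BET against 5.56, 5.85 and 5.67 in CTRL. BET+UVB lay just below UVB, and BET and CTRL overlapped. The probe was detected on 11 of 12 arrays, and the lowest detected level of any probe was between 5.55 and 5.64 on each array. The interaction was -0.45 ± 0.17 (SE; 95% interval -0.81 to -0.093), with an unadjusted p of 0.0179 and a limma adjusted p of 0.586.

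The other tested complex IV subunits, Cox4i1, Cox5a, Cox5b and Cox6a1, had no unadjusted p under 0.05 in any comparison. Cox6a2, the heart and muscle form of subunit 6a, was detected on 0 of 12 arrays, as was the name Cox6c1 (now Cox6c-ps1). Cox6b (now Cox6b1) was detected on 1 array. These 3 names were left out of the test for this reason.

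**Figure D4:**
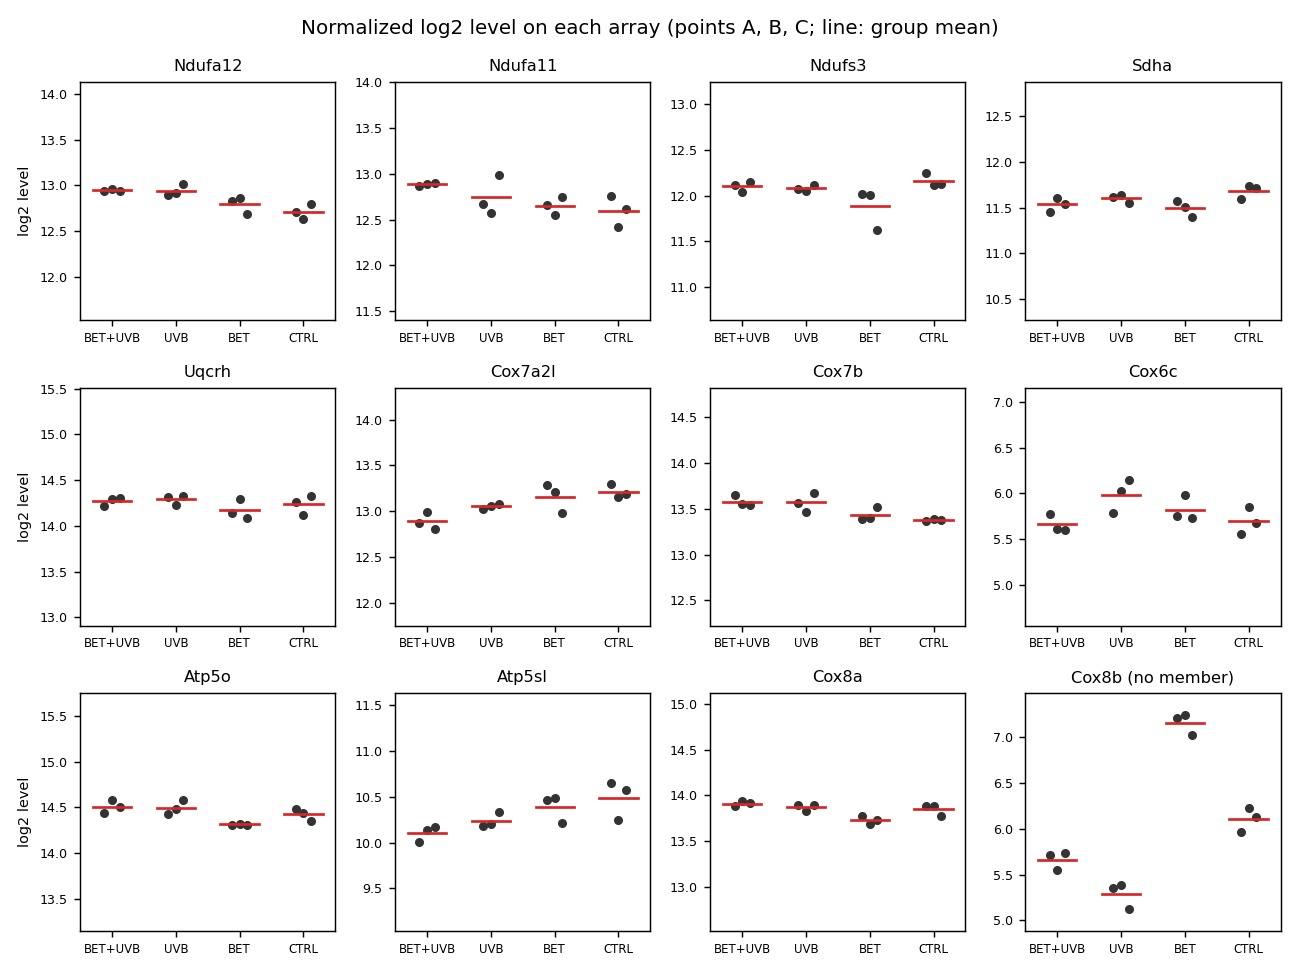
Log2 level on each array (points) and group mean (line) of 11 members and of Cox8b, in the order BET+UVB, UVB, BET, CTRL; every panel spans the same range of log2 units. Members differ by small steps at most, while Cox8b lies near 5.66 in BET+UVB, 5.29 in UVB, 7.16 in BET and 6.11 in CTRL.

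Complex V, ATP synthase, had 11 of its 12 names tested, and Atp5g3 (now Atp5mc3), a c-ring gene, was detected on 1 array and left out. For the averaged UVB change 6 of 11 were above 0 and 5 below (median 0.0061). The 4 subunits of the catalytic head and central stalk were all below 0 (median -0.023, from -0.090 to -0.0078), with 2 above and 2 below the all-gene median, and in the authors' processed values 2 were above 0 and 2 below. Of the 7 in the membrane part and peripheral stalk, 6 were above 0 (median 0.076), and 6 lay above the all-gene median, against 5 with median scaling.

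Atp5o (now Atp5po), the stalk protein that confers sensitivity to oligomycin, was 14.44, 14.59 and 14.50 in BET+UVB and 14.43, 14.49 and 14.58 in UVB, against 14.31, 14.32 and 14.31 in BET and 14.48, 14.44 and 14.35 in CTRL. BET was the lowest and tightest group, and UVB overlapped CTRL. The averaged UVB change was 0.13 ± 0.055 (SE; 95% interval 0.013 to 0.25; limma adjusted p = 0.159). BET+UVB against BET was 0.19 ± 0.078 (SE; limma adjusted p = 0.186).

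Atp5b (now Atp5f1b), the catalytic beta subunit, was 14.73, 14.76 and 14.80 in BET+UVB against 14.82, 14.80 and 14.77 in UVB, and 14.83, 14.76 and 14.62 in BET against 14.85, 14.91 and 14.91 in CTRL. BET lay below CTRL, and the irradiated groups overlapped. Its averaged betaine change was -0.095 ± 0.054 (SE; limma adjusted p = 0.365). The alpha subunit Atp5a1 (now Atp5f1a) had an interaction of 0.21 ± 0.12 (SE; 95% interval -0.053 to 0.47; limma adjusted p = 0.687).

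Of the 4 names that are not subunits, Atp5sl (now Dmac2) had the largest averaged UVB change of all 60 members. It measured 10.01, 10.13 and 10.17 in BET+UVB and 10.19, 10.20 and 10.33 in UVB, against 10.46, 10.49 and 10.22 in BET and 10.65, 10.25 and 10.58 in CTRL. BET+UVB lay below all arrays without UVB, and UVB C overlapped BET C and CTRL B. The change was -0.27 ± 0.082 (SE; 95% interval -0.45 to -0.089; limma adjusted p = 0.0570), and it passed in 7 alternative settings, where it ranged from -0.34 to -0.22.

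Atp5s (now Dmac2l) had the largest averaged betaine change of a member upward, 0.14 ± 0.054 (SE; limma adjusted p = 0.184). Its level was 8.48, 8.52 and 8.58 in BET+UVB against 8.44, 8.43 and 8.45 in UVB, and 8.54, 8.63 and 8.70 in BET against 8.34, 8.47 and 8.47 in CTRL. The groups with betaine lay above those without it on all arrays. Ndufaf1, a complex I assembly factor, and Cox4nb (now Emc8), which belongs to a membrane protein complex of the endoplasmic reticulum, had averaged UVB changes of -0.064 and 0.13.

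One oxidative phosphorylation subunit that the prefixes leave out did change. Cox8b, carried on the array as Cox8h, is the heart and muscle form of complex IV subunit 8, and Cox8a is the form found in most tissues. The upstream sequences of both are printed to set the forms side by side, with that of Ndufa11, the subunit with the largest positive averaged UVB change, as a member that holds an NRF1 match. Each is the 250 bases before the gene's start, 5′ to 3′ in the direction of the gene, from RefSeq (GRCr8). Capitals mark matches on either strand to any of 5 motifs. TATAAA was searched for as the TATA box. The letters CAGCTG stand for an E-box. The ETS core that GABP binds was searched for as CCGGAAG. The cAMP response element was TGACGTCA, and the NRF1 motif was its palindromic consensus, capitalised in the Ndufa11 window. Cox8b lies at chr1:205408274-205408523 on the minus strand, Cox8a at chr1:213833624-213833873 on the minus strand and Ndufa11 at chr9:1637364-1637613 on the plus strand.
Cox8b: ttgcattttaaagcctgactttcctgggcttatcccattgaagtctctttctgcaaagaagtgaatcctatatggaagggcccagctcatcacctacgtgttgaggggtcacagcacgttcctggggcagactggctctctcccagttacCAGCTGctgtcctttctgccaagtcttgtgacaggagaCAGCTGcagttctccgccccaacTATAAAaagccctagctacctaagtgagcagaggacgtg
Cox8a: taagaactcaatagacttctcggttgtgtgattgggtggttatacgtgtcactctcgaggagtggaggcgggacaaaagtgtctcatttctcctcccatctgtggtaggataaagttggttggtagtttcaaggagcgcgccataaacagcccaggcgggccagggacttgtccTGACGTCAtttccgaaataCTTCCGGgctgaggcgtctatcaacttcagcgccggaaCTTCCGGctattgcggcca
Ndufa11: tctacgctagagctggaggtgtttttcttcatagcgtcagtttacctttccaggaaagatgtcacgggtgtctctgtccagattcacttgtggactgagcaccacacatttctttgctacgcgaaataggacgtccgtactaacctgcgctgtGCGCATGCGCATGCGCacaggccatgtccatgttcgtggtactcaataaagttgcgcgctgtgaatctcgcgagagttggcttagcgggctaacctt

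The Cox8b window held TATAAA at 39 bases before the start and CAGCTG at 100 and 62 bases. The Cox8a window held CCGGAAG on the opposite strand at 57 and 19 bases and TGACGTCA at 76 bases. The Ndufa11 window held a pair of overlapping NRF1 matches. Windows were matched for 53 of 59 subunits, which are the 60 subunit names without Cox6c1, now annotated as the pseudogene Cox6c-ps1. CCGGAAG was in 15 of these 53 (28.3%), against 7.27% of 33469 windows of all genes, and the NRF1 motif was in 4 (7.55%), against 0.762%. TGACGTCA was in 3 (5.66%), against 1.59%. TATAAA was in 3 (5.66%), against 12.9%, and CAGCTG in 5 (9.43%), against 11.97%. The windows of all genes were not matched to the subunits by gene type or expression level, so these shares compare unlike sets. Such matches describe the letters of the windows and do not show that a factor binds there.

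Cox8b measured 5.71, 5.55 and 5.73 in BET+UVB and 5.35, 5.39 and 5.12 in UVB, against 7.22, 7.24 and 7.03 in BET and 5.97, 6.23 and 6.13 in CTRL. BET stood above CTRL, and both stood above every irradiated array. The probe was detected on 3 of 3 arrays in BET and in CTRL, on 2 of 3 in BET+UVB and on 0 of 3 in UVB, so UVB arrays give only an upper bound on its level, and no order between BET+UVB and UVB is read. With undetected arrays at the detection floor, it was at least 1.43-fold lower in UVB than in CTRL. This bound was not tested, and the limma adjusted p of 0.00081 for UVB against CTRL was computed from the measured values. BET+UVB against BET was -1.50 ± 0.11 (SE; limma adjusted p = 9.71e-06), and the averaged UVB change, with undetected arrays at their measured values, was -1.16 ± 0.075 (SE; limma adjusted p = 1.24e-06), and -1.0004 with them at the detection floor.

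In the direction of betaine, BET was higher than CTRL (limma adjusted p = 0.00117), and the averaged betaine change, which also rests on the undetected UVB arrays, was 0.71 ± 0.075 at their measured values (SE; limma adjusted p = 0.000326) and 0.57 with undetected arrays at the floor. BET+UVB against UVB gave no fold, and its limma adjusted p was 0.123. BET+UVB against CTRL was -0.45 ± 0.11 (SE; limma adjusted p = 0.0309), and this call was lost in 7 of 20 alternative settings, while the calls of Cox8b in the other 5 comparisons held in each alternative that tested it. The interaction, which uses the undetected UVB arrays, did not pass the test (limma adjusted p = 0.555). Over the same arrays Cox8a was 13.88, 13.94 and 13.91 in BET+UVB and 13.89, 13.83 and 13.89 in UVB, against 13.77, 13.69 and 13.73 in BET and 13.88, 13.89 and 13.77 in CTRL. Its averaged UVB change was 0.10 ± 0.051 (SE; 95% interval -0.0076 to 0.21; limma adjusted p = 0.242), and its averaged betaine change was -0.038 ± 0.051 (SE; limma adjusted p = 0.737). In BET+UVB against BET, Cox8a was higher without passing the test, at 0.18 ± 0.071 (SE; limma unadjusted p = 0.0276, adjusted p = 0.182).

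Cox8b is known from muscle and brown fat, so markers of both were read beside it. Of 6 muscle markers, 2 (Mb and Tnnt2) were detected on all 12 arrays and 4 (Acta1, Actc1, Ckm and Myh7) on none. Their summed linear level ran from 401 to 454 in BET+UVB, 318 to 340 in UVB, 314 to 405 in BET and 312 to 327 in CTRL. Tnnt2, cardiac troponin T, rose with betaine by 0.62 ± 0.11 averaged over UVB states (SE; limma adjusted p = 0.0105). The rise was called in BET+UVB against UVB, at 0.92 ± 0.15 (SE; limma adjusted p = 0.0160). In BET against CTRL, where Cox8b was higher, Tnnt2 did not pass, at 0.32 ± 0.15 (SE; limma adjusted p = 0.455). In BET+UVB against CTRL, where Cox8b was lower, Tnnt2 was higher, at 0.82 ± 0.15 (SE; limma adjusted p = 0.00820). Of 3 brown fat markers, Ucp1 and Adipoq were detected on no array and Cidea on 11. Their summed linear level ran from 113 to 140 in BET+UVB, 143 to 179 in UVB, 118 to 138 in BET and 120 to 141 in CTRL. The part of these markers in the result was not tested.

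The remaining genes of the pathway were read from lists of other carriers, assembly factors and neighbouring metabolism, for the averaged UVB change, which called 11.2% of all genes and had a median of -0.014 over all genes. The median change was 0.088 in the list of other carriers and subunits, 0.045 in assembly factors, 0.0035 in the citric acid cycle, 0.079 in carriers and import, -0.028 in biogenesis regulators, 0.058 in the mitochondrial ribosome and 0.18 in glycolysis. Of the 16 tested electron carriers and subunits that the prefixes miss, Coq5, a methyltransferase of ubiquinone synthesis, rose with UVB and Cox8b fell. Coq5 was 10.16, 10.26 and 10.13 in BET+UVB and 10.20, 10.25 and 10.36 in UVB, against 9.83, 9.84 and 9.97 in BET and 10.11, 9.79 and 10.02 in CTRL, and its averaged change was 0.30 ± 0.068 (SE; limma adjusted p = 0.0137). Every array with UVB was higher than every array without it, and the call was lost with median scaling. None of the 13 protein genes of mitochondrial DNA was found among the array's names, so the values describe nuclear genes.

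Of 20 tested assembly factors, 0 rose and 2 fell with UVB averaged over betaine states, both of complex I. Nubpl, which delivers iron-sulfur clusters to complex I, was 8.95, 8.90 and 8.89 in BET+UVB and 8.91, 8.75 and 9.09 in UVB, against 9.59, 9.63 and 9.54 in BET and 9.48, 9.57 and 9.47 in CTRL. Every irradiated array lay below every other array. The averaged change was -0.63 ± 0.064 (SE; limma adjusted p = 3.88e-05), and it held in all 20 alternative settings. Acad9, the other, fell by 0.37 ± 0.094 on the log2 scale (SE; limma adjusted p = 0.0250), a call lost in 7 of 20 settings.

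In the citric acid cycle and pyruvate entry, 3 of 24 tested genes rose with UVB and 1 fell. Fumarase (Fh) rose by 0.32 ± 0.055, and pyruvate carboxylase (Pc) rose by 0.35 ± 0.071 (SE; limma adjusted p = 0.00207 and 0.00645). The malic enzyme Me2 rose, a call lost in 1 of 20 settings, and Pdk2, a kinase that inhibits pyruvate dehydrogenase, fell, a call lost in 11 of 20. Of 31 tested mitochondrial carriers and import genes 4 rose and 0 fell, led by the uncoupling protein homologue Ucp2 with 0.41 ± 0.078 (SE; limma adjusted p = 0.00491). The calls of the other 3 were lost in 1 (Timm13), 13 (Slc25a10) and 15 (Hspd1) of 20 settings. Of 17 tested regulators of mitochondrial biogenesis 0 rose and 1 fell, and of 62 tested genes of the mitochondrial ribosome 1 rose and 0 fell. The calls of this regulator, Mterf1, and of the ribosomal gene, Mrpl21, were lost in 9 and 10 of 20 settings. In BET+UVB against CTRL, the regulator Gabpa, a subunit of GABP, was lower, at -0.49 ± 0.11 (SE; limma adjusted p = 0.0208), a call lost in 5 of 21 settings. Its averaged UVB change did not pass, at -0.23 ± 0.076 (SE; limma adjusted p = 0.0809). In BET+UVB against BET, the regulator Pprc1 was higher, at 0.44 ± 0.12 (SE; limma adjusted p = 0.0484), a call lost in 13 of 21 settings.

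In glycolysis, 5 of 17 tested genes rose and 1 fell for the averaged UVB change. The lactate and pyruvate transporter Slc16a1 was 11.06, 10.83 and 10.86 in BET+UVB and 10.95, 11.09 and 11.35 in UVB, against 10.27, 10.24 and 10.27 in BET and 10.71, 10.37 and 10.41 in CTRL. Irradiated arrays were all above the others, and the change was 0.65 ± 0.085 (SE; limma adjusted p = 0.000306). Gapdh rose by 0.39 ± 0.067 and Pgk1 rose by 0.30 ± 0.055 (SE), both in every setting. The lactate dehydrogenase subunits Ldhb and Ldha rose, with calls lost in 1 and 14 of 20 settings. Eno3, the muscle enolase, passed as lower for the averaged change, a call lost with the authors' processed values. It was undetected on all 3 UVB arrays and, with undetected arrays at the detection floor, at least 1.47-fold lower in UVB than in CTRL. This bound was not tested, and the limma adjusted p of 0.00139 for UVB against CTRL was computed from the measured values. BET+UVB against BET was 0.083 ± 0.11 for Eno3 (SE; limma adjusted p = 0.745), and its interaction had a limma adjusted p of 0.430. For the averaged betaine change, Ldha was -0.33 ± 0.072 (SE; limma adjusted p = 0.0307), a call lost in 9 of 20 settings. The difference between the glycolysis list and the oxidative phosphorylation members was not tested.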

How the data were processed

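The deposited table holds probe intensities and detection p-values for 12 arrays that the authors left non-normalized, per the file headers; a second deposited table holds the authors' processed log2 values, whose background correction, normalization and centring are not given in the sources used here. The submitters' processing notes name R 2.11 and limma without a role.

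Intensities were corrected by the normexp method (offset 16), whose background parameters limma derives from the detection column, then taken to log2 and quantile normalized (limma 3.58.1, R 4.3.3). Probes detected (p under 0.05) on at least 3 of 12 arrays were kept (11255 of 22523), and each gene was represented by its brightest probe, which left 10937 genes. Of 22523 probes, 10291 were named by a current RefSeq symbol, 4978 by a synonym, 1642 by gene ID and 5495 by the array's name only. A linear model over 4 groups with empirical Bayes (8 residual and 3.84 prior degrees of freedom) gave 8 comparisons, with Benjamini-Hochberg adjustment over all genes. An averaged change is the mean of 2 comparisons of 3 against 3 arrays. Scripts were tested on simulated data.

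Named subunits are, per complex, the one with the lowest p for the averaged UVB change, the averaged betaine change and the interaction. Other members were added after their values were seen, and not all of these were near the threshold. The members and gene lists were chosen with earlier results of these data known. Letters A, B and C did not pair the arrays: same-letter correlations of deviations from group means ran from -0.38 to 0.34. Alternatives were the authors' values, no background correction, median scaling, 2 other detection filters, the mean of a gene's probes, array weights, a replicate block, fits of only the groups compared, and leaving out each array. Probe sequences were not used here, so match to pseudogene copies was not checked.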

Additional observations from a re-analysis of the deposited data

How the results depend on the processing

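No member passed an adjusted p of 0.05 in any of the 8 comparisons as reported, and none passed with the replicate block either (0 members in each comparison). For BET against CTRL, BET+UVB against UVB, the interaction and the averaged betaine change, the count was 0 in all alternatives run. For UVB against CTRL it was 2 with the authors' processed values and 1 with array weights. For BET+UVB against CTRL it was 1 with the authors' values, 1 without background correction, 3 with array weights, and from 0 to 2 when each array was left out, with 1 without CTRL B and 2 without BET C. For BET+UVB against BET it was 1 with the authors' values, 5 with array weights, and 0 to 1 when each array was left out, with 1 without BET C. For the averaged UVB change it was 7 with the authors' values (5 higher, 2 lower), 3 without background correction, 1 with median scaling, 1 without a detection filter, 2 with genes detected on all 12 arrays, 6 with array weights, and 0 to 3 when each array was left out, with 1 without CTRL B and 3 without BET C. The cause was not tested. Members called for it were Atp5sl (7 settings), Ndufa12 (5), Cox7a2l (4), Cox7b, Ndufab1 and Ndufv3l (2 each), and Atp5o and Ndufs5 (1 each). With median scaling the averaged UVB changes of Sdhd (-0.0133) and Uqcrh (-0.0108) turned below 0, as the median of all genes moved to -0.063, against -0.014 as reported, and both stayed above it (by 0.050 and 0.053). Of 45 calls of other pathway genes, 18 were kept in every alternative. The fit of only the groups compared was not run for the comparisons that use all 4 groups, and the chip could not be used as a block because the file headers name none. Probes near the detection limit (Cox6c, Ndufs6, Cox8b in irradiated arrays) limit what can be read from their levels.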
